A study of Homo sapiens with 4 samples.

Results

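The expression of 8 genes of epithelial polarity and polarized membrane traffic was described across single cells and patches of MCF10A, an untransformed human breast epithelial cell line. The genes were chosen by name, with their relation to epithelial-mesenchymal transition (EMT) in these cells already known, and all 8 were among the 19577 genes listed in any plate. They were MAL2, RAB25, AP1M2, VAMP8, MYO5C, LLGL2, PARD6B and CRB3. Cells carrying H2B-GFP were seeded as a circular patch on fibronectin-coated glass, cultured for 6 days, and phototagged in concentric bands after dye incubation under the microscope. For the low-resolution group the patch was divided into rings of 1000 to 1500 μm, and for the high-resolution group the 2 outer bands were 250 μm wide. Each group held 2 plates of 384 wells, and each plate is 1 replicate. The line, medium, coating, culture time and photoactivatable dyes were shared by all plates. The groups differ by the tagging geometry and by the wells sorted from it, and may differ in ways the labels do not give. The study describes the patches of a group as biological replicates, and the labels give no further detail on how they were grown apart. Which band a well's cell came from was not analysed here, and every value is for the cells of a whole plate.

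An epithelial sheet keeps an apical and a basolateral membrane apart by polarity complexes at the cortex and by sorting of vesicles to either surface. The Crumbs and PAR complexes mark the apical side, the Scribble complex marks the lateral side, and each restricts the other. Newly made and recycled proteins reach the right membrane through recycling endosomes, adaptor complexes that select cargo, myosin motors and SNARE proteins that fuse vesicles. In EMT, cells lose apical-basal polarity and cell junctions and gain mesenchymal proteins such as vimentin. Of the 8 genes, AP1M2 and LLGL2 act toward the basolateral membrane, so the set is wider than the apical domain.

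Transcripts were counted by SORT-seq, which tags each transcript at its 3′ end with a unique molecular identifier (UMI), so that levels were not scaled for gene length and genes can still differ in capture. The wells of all plates carry the same 384 barcodes, and a barcode does not link cells of different plates. Of the 1536 wells, 1146 had 2000 to 9000 features and under 40% mitochondrial counts and were kept as cells, 271 to 293 per plate. Their median total ran from 30520 counts in low-resolution replicate 1 to 41248 in high-resolution replicate 2, and both high-resolution plates were deeper than both low-resolution plates. A level is given as counts per 10000 counts of all genes in the plate's cells. Of 9 epithelial markers, 7 were detected in 20% or more of the cells in each plate, and KRT5 in at least 99.6%. TP63 was found in at most 4.12% of the cells of a plate. Of the leukocyte markers, PTPRC reached at most 1.71% and CD3E 0.341%, and CDH5 and VWF, which define endothelium, reached 0.683% and 0.687%. Single markers of other types were more frequent, with CD68 in up to 27.0%, PECAM1 in up to 47.1% and COL1A1 in up to 27.6% of the cells of a plate.

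The RefSeq promoter sequence (build GRCh38.p14, 250 bases before to 50 after the gene's start) was found for RAB25, AP1M2, VAMP8, MYO5C and CRB3. The sequences of CRB3, AP1M2, RAB25 and VAMP8 are shown, and that of MYO5C is not. Of the 5 genes, 4 hold CAGGTG, the E-box core known to be recognised by the EMT factors of the Snail and ZEB families. Capitals mark CAGGTG or its reverse complement CACCTG, the only motif searched.
CRB3: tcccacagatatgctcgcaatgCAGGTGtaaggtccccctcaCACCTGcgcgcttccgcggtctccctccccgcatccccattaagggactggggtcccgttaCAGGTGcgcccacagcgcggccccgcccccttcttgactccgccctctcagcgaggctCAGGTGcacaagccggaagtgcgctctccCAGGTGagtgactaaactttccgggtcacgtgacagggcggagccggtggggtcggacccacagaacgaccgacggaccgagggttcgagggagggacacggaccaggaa
AP1M2: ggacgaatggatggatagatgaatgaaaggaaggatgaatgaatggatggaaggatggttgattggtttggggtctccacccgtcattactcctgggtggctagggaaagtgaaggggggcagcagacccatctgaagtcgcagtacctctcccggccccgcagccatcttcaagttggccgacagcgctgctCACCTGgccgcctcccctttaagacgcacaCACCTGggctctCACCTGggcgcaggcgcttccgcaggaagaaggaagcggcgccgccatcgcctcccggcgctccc
RAB25: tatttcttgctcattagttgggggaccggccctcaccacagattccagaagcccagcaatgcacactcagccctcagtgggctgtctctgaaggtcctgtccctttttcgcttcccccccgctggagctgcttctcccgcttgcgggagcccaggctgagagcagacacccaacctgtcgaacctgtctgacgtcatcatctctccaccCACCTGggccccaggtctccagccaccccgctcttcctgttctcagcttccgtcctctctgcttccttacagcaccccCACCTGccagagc
VAMP8: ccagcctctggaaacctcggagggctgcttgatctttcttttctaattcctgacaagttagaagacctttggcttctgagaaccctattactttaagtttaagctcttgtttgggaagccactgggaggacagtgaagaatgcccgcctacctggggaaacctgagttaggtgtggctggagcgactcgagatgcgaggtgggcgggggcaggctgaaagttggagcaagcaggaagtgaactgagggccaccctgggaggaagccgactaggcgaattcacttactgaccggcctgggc
The CRB3 promoter (chr19:6464021-6464320, plus strand) held 5 copies, the AP1M2 promoter (chr19:10587263-10587562, minus strand) 3, and the RAB25 promoter (chr1:156060910-156061209, plus strand) 2. The MYO5C promoter (chr15:52295755-52296054, minus strand) held 1 and the VAMP8 promoter (chr2:85577336-85577635, plus strand) none. Of 35116 promoters of the same length, 20.6% held at least 1 copy, 3.49% at least 2 and 0.635% at least 3. RefSeq places the starts of CRB3 and VAMP8 inside the longer genes of GENCODE release 29 (chr19:6463777-6467221 and chr2:85561562-85582031). The printed windows of both thus lie within those genes. These matches are letters in a window, and no binding was measured.

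MAL2, a tetraspan raft protein needed for transcytosis to the apical surface, had the highest level of the 8 genes, with 4.23 and 4.08 counts per 10000 in low-resolution replicates 1 and 2 and 3.77 and 3.59 in high-resolution replicates 1 and 2. Values of the low-resolution pair and of the high-resolution pair are given in this order throughout. Every high-resolution plate was below every low-resolution plate. The mean was 3.92 ± 0.289 (SD, n = 4 plates), and a UMI was found in 89.7% to 93.9% of the cells of a plate.

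Next came VAMP8, a SNARE of late endosomes and regulated secretion, with 1.12 and 1.31 counts per 10000 in the low-resolution pair and 1.04 and 0.944 in the high-resolution pair. RAB25, an epithelial GTPase of the apical recycling endosome, was at 0.970 and 1.12, and at 0.822 and 0.675. AP1M2, the μ subunit of the epithelial AP-1B adaptor that sorts cargo to the basolateral membrane, was at 0.964 and 1.05, and at 0.708 and 0.616. The high-resolution plates were lower than both low-resolution plates for each of these 3 genes.

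LLGL2, a Scribble-complex protein of the lateral membrane, had 0.475 and 0.536 counts per 10000 in the low-resolution pair and 0.341 and 0.313 in the high-resolution pair. MYO5C, a class V myosin that moves secretory vesicles, had 0.495 and 0.468, and 0.305 and 0.265. These also ran lower in both high-resolution plates.

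The apical complex genes were scarce. PARD6B, which joins atypical protein kinase C and PAR3 in the PAR complex, had 0.0647 and 0.0684 counts per 10000 in the low-resolution pair and 0.0761 and 0.111 in the high-resolution pair. It was the only one of the 8 that was higher in both high-resolution plates. CRB3, the Crumbs protein of epithelia, had 0.0606 and 0.0803, and 0.0639 and 0.0384, so its groups overlapped.

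The mean levels over 4 plates fell in the order MAL2, VAMP8, RAB25, AP1M2, LLGL2, MYO5C, PARD6B and CRB3. The plate ranges of MAL2 and VAMP8, of AP1M2 and LLGL2, and of MYO5C and PARD6B did not overlap. The other neighbours in this order overlapped in range, and LLGL2 was above MYO5C in 3 of 4 plates, as was PARD6B above CRB3.

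**Figure D1:**
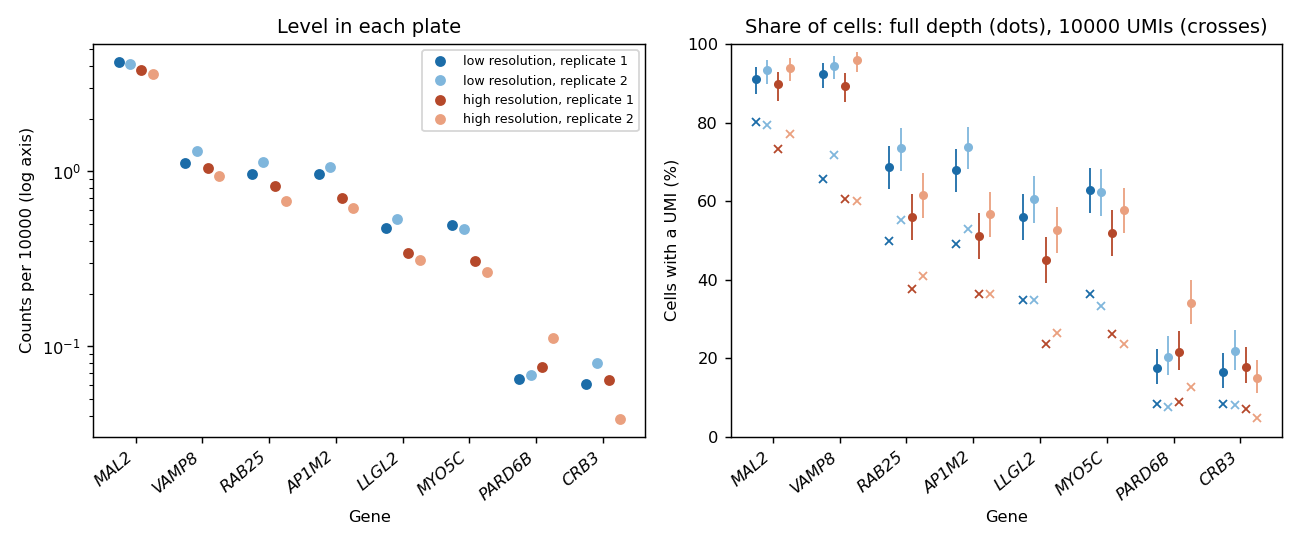
Level (counts per 10000, log axis, left) and share of cells with a UMI (%, right) of each gene in the 4 plates. On the right, dots with exact binomial 95% intervals are at full depth and crosses are after thinning to 10000 UMIs per cell. MAL2 lies near 4 counts per 10000 in all plates, and 6 genes are lower in both high-resolution plates, beside 29.0% of all genes.

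VAMP8, at a lower level than MAL2, had a UMI in 89.3% to 95.9% of the cells of a plate. RAB25 was found in 56.0% to 73.4% of cells, AP1M2 in 51.2% to 73.8%, MYO5C in 51.9% to 62.9% and LLGL2 in 45.02% to 60.5%. PARD6B was found in 17.5% to 34.1% of cells, with high-resolution replicate 2 (exact binomial 95% interval 28.7% to 39.9%) above the other plates (17.5% to 21.6%). CRB3 was found in 15.0% to 21.8%. These shares depend on depth: after each cell was thinned to 10000 UMIs (2 to 7 cells per plate were shallower and left out), the mean share was 77.5% for MAL2, 64.5% for VAMP8, 45.9% for RAB25, 43.7% for AP1M2, 29.9% for LLGL2 and 29.8% for MYO5C. It was 9.34% for PARD6B and 7.11% for CRB3. By plate, the thinned share of PARD6B was 12.7% in high-resolution replicate 2 (exact binomial 95% interval 9.11% to 17.1%). It was 7.46% to 8.80% in the other plates, and their intervals overlapped that of high-resolution replicate 2. In the 222 wells under 2000 features, with a median of 2181 counts, MAL2 was found in 43.2% and VAMP8 in 18.5%, and the other 6 genes in 1.35% to 14.9%. Free RNA in a well can give a UMI in a cell that does not express the gene, and no cell type lacking these genes was on the plates. Intervals cover counting error only.

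A cell held a median of 4 to 5 of the 8 genes. All 8 were found together in 3.09% to 5.90% of the cells of a plate, and none of them in 0% to 2.06%.

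The relation to EMT was described with a mesenchymal (M) score, made by gene set variation analysis from the study's list of 115 mesenchymal genes, of which 100 were used in the low-resolution and 97 in the high-resolution pair. None of the 8 genes is in that list. RAB25, AP1M2, VAMP8 and MYO5C are among the 65 genes of the study's epithelial (E) list, and were left out wherever an E score was used, which left 60 genes. Spearman's rho between a gene and the M score was computed over the cells of each plate. Since the relation to EMT was known when the genes were chosen, these values are descriptions with no test, over cells that share a plate and differ in depth.

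MAL2 had a rho with the M score of -0.766 and -0.739 in the low-resolution pair and -0.796 and -0.805 in the high-resolution pair. Its mean of -0.776 was the lowest of the 8006 ranked genes, those detected in 20% or more of the cells in each plate, and RAB25 (-0.726) was next. AP1M2 (-0.713) was at place 5 and LLGL2 (-0.599) at place 22. MYO5C (-0.369) and VAMP8 (-0.366) were at places 175 and 180.

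CRB3 had a mean rho of -0.403, with -0.529 in high-resolution replicate 1 and -0.345 to -0.376 in the other plates, and PARD6B had -0.160. These 2 genes were in under 20% of the cells of at least 1 plate and were not ranked. The correlation with the M score was below 0 in all 4 plates for all 8 genes and -0.3 or lower in all 4 for 6 of 8, all but MYO5C and PARD6B. Of the ranked genes outside the M list, 34.7% were below 0 in every plate. MYO5C was at -0.473 and -0.453 in the low-resolution pair but at -0.30 and -0.251 in the high-resolution pair. Among the 7975 ranked genes outside the M list, 2.23% were at -0.3 or lower in every plate and 1.66% at 0.3 or higher, and the median gene had a mean rho of -0.0232. After thinning, MAL2 was at -0.684, RAB25 at -0.582, AP1M2 at -0.577, LLGL2 at -0.431, VAMP8 at -0.237, MYO5C at -0.211, CRB3 at -0.207 and PARD6B at -0.0534, and 4 of 8 were at -0.3 or lower in every plate.

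To show the size of the differences, the cells of each plate were split into tertiles by M score, of 90 to 98 cells. The tertiles rank cells within a plate, so they are not fixed ranges of score. The lowest tertile was also the deepest, with median totals of 37738 to 48772 counts against 26772 to 38958 in the highest, and its median mitochondrial share was 30.6% to 33.2% against 26.4% to 29.7%. The part of depth and mitochondrial share in the levels below was not tested beyond the thinning.

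In the lowest tertile MAL2 had 6.83 and 6.21 counts per 10000 in the low-resolution pair and 6.96 and 6.37 in the high-resolution pair. In the highest tertile it had 0.935, 1.09, 0.753 and 0.864. MAL2 was thus 7.30 times higher in the lowest tertile, from the mean of the log2 ratios (-2.87 ± 0.29, SD, n = 4 plates), yet a UMI was still found in 75.3% to 86.6% of the cells of the highest tertile. After thinning this share was 45.7% to 53.6%.

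RAB25 and AP1M2 were scarcer at the mesenchymal end. RAB25 had 1.53, 1.77, 1.67 and 1.26 counts per 10000 in the lowest tertile of the 4 plates, in the order above. In the highest it had 0.100, 0.157, 0.0586 and 0.110, and the mean log2 ratio was -3.94 ± 0.63. AP1M2 went from 1.49, 1.60, 1.49 and 1.18 to 0.110, 0.161, 0.0615 and 0.0634, a mean log2 ratio of -3.97 ± 0.56. Both were found in at least 96.9% of the cells of each lowest tertile. In the highest tertile RAB25 was found in 18.6% to 34.4% and AP1M2 in 17.5% to 33.3%.

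LLGL2 had 0.766, 0.738, 0.688 and 0.547 counts per 10000 in the lowest tertile and 0.0536, 0.112, 0.0322 and 0.0976 in the highest. Its mean log2 ratio was -3.37 ± 0.91, with the widest spread between plates of the 7 genes with a ratio. For comparison, CDH1 and EPCAM, the cadherin and adhesion molecule that mark epithelial cells, had ratios of -4.27 ± 0.67 and -4.35 ± 0.72. VIM (5.53 ± 0.74) and FN1 (4.95 ± 0.91), which encode vimentin and fibronectin, are in the M list and were used in the score.

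CRB3 was detected almost only in the lower tertiles. Its counts in the lowest tertile were 44.0, 51.0, 65.0 and 38.0, and in the highest 0, 2, 0 and 4. Over all plates, 5 of 381 cells of the highest tertile held a CRB3 UMI, against 148 of 383 in the lowest. Per 10000 counts of these pooled cells CRB3 was 24.7 times higher in the lowest tertile (exact 95% interval 11.2 to 68.2, counting error only). The interval treats the cells of all plates as one sample and leaves out the spread between plates. No mean log2 ratio over the 4 plates is given, since 2 plates were at 0 in the highest tertile. The log2 ratio was -4.21 in low-resolution replicate 2. In high-resolution replicate 2 it was -2.93, a smaller fold than the pooled interval covers. After thinning to 10000 UMIs, with tertiles from the score of the thinned cells, 49 UMIs were left in 378 cells of the lowest tertile and 5 in 375 cells of the highest. In these pooled cells CRB3 was then 9.72 times higher in the lowest tertile (exact 95% interval 3.89 to 31.3, counting error only). By plate, 18, 8, 15 and 8 UMIs were left in the lowest tertile and 0, 3, 0 and 2 in the highest. The log2 ratio of low-resolution replicate 2 was -1.40, a smaller fold than the pooled interval covers. That of high-resolution replicate 2 lay near the lower end of the interval.

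The other 3 genes kept more of their level. MYO5C had 0.780, 0.695, 0.440 and 0.354 counts per 10000 in the lowest tertile and 0.191, 0.213, 0.190 and 0.205 in the highest (mean log2 ratio -1.43 ± 0.55). Both high-resolution plates were lower in the lowest tertile, while in the highest all 4 plates lay between 0.190 and 0.213. VAMP8 went from 1.35, 1.60, 1.31 and 1.22 to 0.666, 0.912, 0.808 and 0.705 (-0.83 ± 0.13). It was found in 86.6% to 95.9% of the cells of the highest tertile and 94.5% to 97.9% of those of the lowest. After thinning these shares were 52.6% to 57.3% and 68.0% to 75.6% and did not overlap. PARD6B went from 0.0765, 0.0907, 0.107 and 0.125 to 0.0469, 0.0394, 0.0527 and 0.0610 (-0.99 ± 0.21), with 60 of 381 cells of the highest tertile still positive. After thinning the ratios were -0.92 ± 0.26 for VAMP8, -1.44 ± 0.39 for MYO5C and -0.75 ± 0.61 for PARD6B, and from -2.71 to -3.95 for MAL2, RAB25, AP1M2 and LLGL2.

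**Figure D2:**
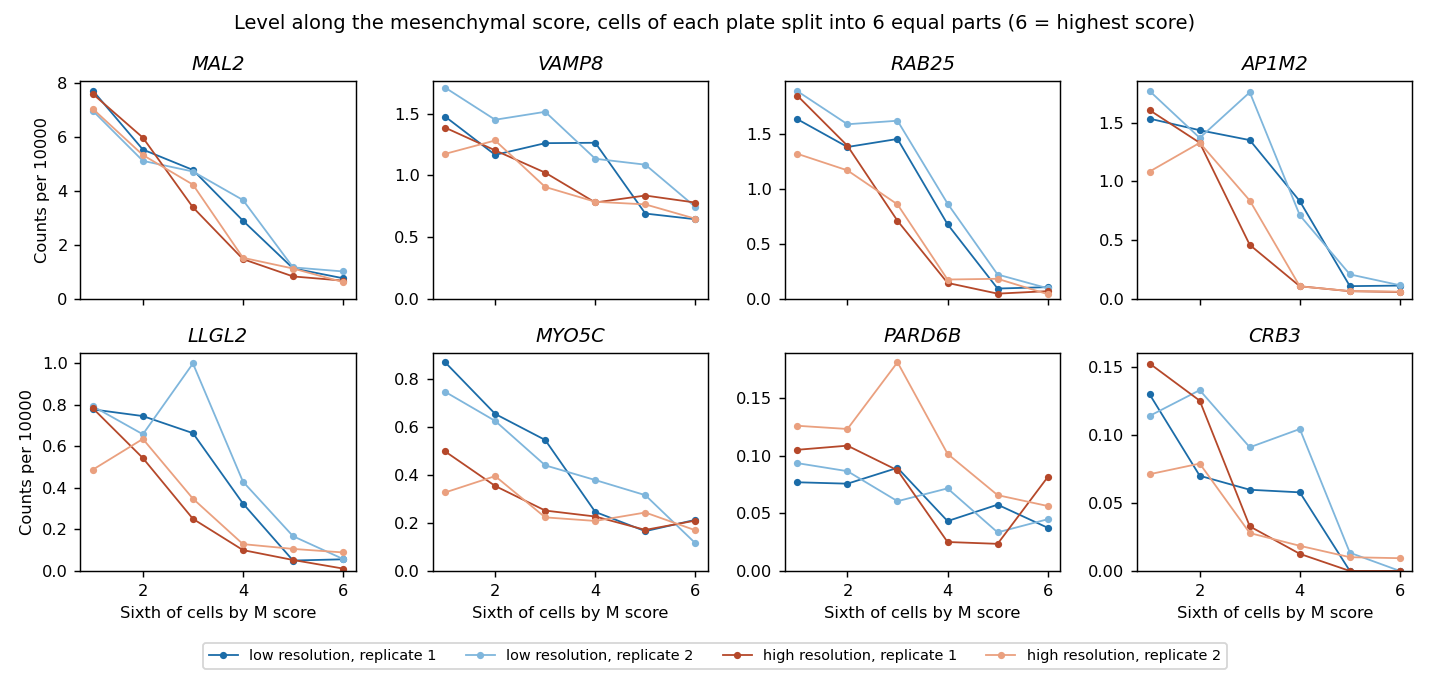
Level of each gene (counts per 10000) in 6 equal parts of each plate's cells ordered by M score, 6 being the most mesenchymal, with 1 line per plate. RAB25, AP1M2 and LLGL2 are low from part 5 on in all plates, at part 4 already in the high-resolution pair, while VAMP8 falls in smaller steps to a mean of 49.7% of its first part.

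In 6 equal parts of each plate, the mean level of RAB25 in the fourth part was 27.1% ± 19.3 of that in the first (SD, n = 4 plates), and in the sixth 4.64% ± 1.47. AP1M2 stood at 27.7% ± 23.2 and 5.78% ± 1.60, and MAL2 at 32.8% ± 15.5 and 10.5% ± 2.73. VAMP8 stood at 68.8% ± 12.2 and 49.7% ± 7.03. The wide spread in the fourth part followed the groups, since the high-resolution plates were lower there. In the middle tertile, RAB25 had 1.06 and 1.22 counts per 10000 in the low-resolution pair against 0.448 and 0.517 in the high-resolution pair, and AP1M2 had 1.09 and 1.20 against 0.295 and 0.471. LLGL2 had 0.492 and 0.694 against 0.181 and 0.239.

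A cell of the lowest tertile held a median of 6 of the 8 genes in every plate, and a cell of the highest held 2 to 3. At least 6 genes were found in 77.6% to 84.6% of the cells of the lowest tertile and in 1.03% to 5.56% of those of the highest. All 8 were found in 8.25% to 13.2% of cells of the lowest tertile and in no cell of the highest. These shares depend strongly on depth. After thinning, the medians were 4 to 5 and 1 to 2 genes, at least 6 were found in 14.4% to 26.0% of cells of the lowest tertile and in no cell of the highest, and all 8 in 0% to 1.05% of the lowest.

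The 8 genes were also compared with each other. All 28 pairs had a rho above 0 in every plate, and the share of all gene pairs that did is not given here. The median over pairs was 0.320 ± 0.0406 (SD, n = 4 plates), against 0.0202 for all pairs of ranked genes, of which 0.402% on average reached the median of the 8 genes. The 8 were chosen with their relation to EMT known, so a median above that of all pairs was likely from the start and is no test. Pairs of other genes with a similar rho with the M score were not compared. The closest pair was RAB25 and AP1M2 (mean 0.733, 0.710 to 0.755), a recycling-endosome GTPase and a sorting adaptor subunit. It was followed by MAL2 with RAB25 (0.705) and with AP1M2 (0.687), and by LLGL2 with RAB25 (0.620), AP1M2 (0.604) and MAL2 (0.598). These 4 genes thus made the 6 closest pairs among the 8. FXYD3, outside the 8, had a higher mean rho with RAB25 (0.753) and with AP1M2 (0.762) than these had with each other. PARD6B had the weakest relation to the others of the 8, with a median of 0.106 and a mean of 0.0682 with MYO5C.

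After thinning, the median over pairs was 0.161 ± 0.0285, and 24 to 26 of the 28 pairs of a plate had a rho above 0. MAL2 and RAB25 were then the closest (0.526), and PARD6B with MYO5C was at -0.0512. Within tertiles of M score the pairs were more loosely related: the median was 0.128 ± 0.0392 in the lowest, 0.183 ± 0.0517 in the middle and 0.0714 ± 0.0559 in the highest, where 21 of 28 pairs could be computed in 2 plates. No value or share over all pairs of ranked genes is given after thinning or within tertiles. RAB25 and AP1M2 were at 0.346 (0.175 to 0.477) in the lowest tertile, 0.538 (0.431 to 0.719) in the middle and 0.146 (-0.0267 to 0.245) in the highest. CRB3, with fewer counts than PARD6B in the mean, had a median of 0.278 with the other genes at full depth.

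**Figure D3:**
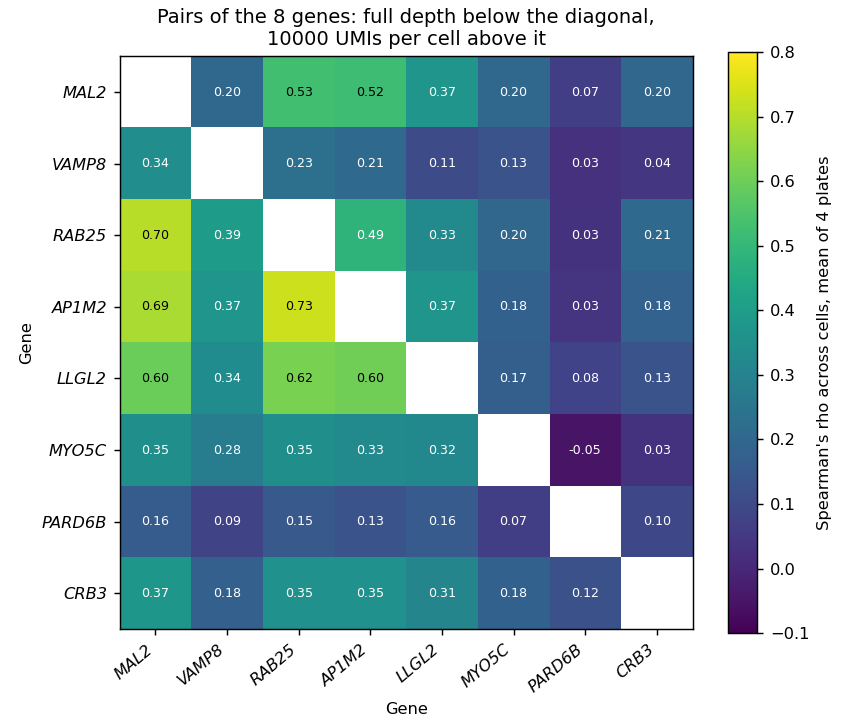
Spearman's rho across cells (mean of 4 plates) for each pair of the 8 genes, at full depth below the diagonal and after thinning to 10000 UMIs above it. MAL2, RAB25, AP1M2 and LLGL2 hold the highest values at both depths, and the row of PARD6B is the lowest at full depth.

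A summed score, the mean of the 8 standardized log-normalized values in a cell, had a rho of -0.763 ± 0.0111 with the M score and 0.815 ± 0.0290 with the E score of the other 60 genes (SD, n = 4 plates). Its rho was 0.696 with CDH1, 0.692 with EPCAM, -0.524 with VIM and -0.698 with FN1. It rose with the mitochondrial share (0.313) and fell with the G2/M score (-0.183), and its relation to total counts was 0.111. VAMP8 had the lowest rho with the G2/M and S scores of the 8 genes, at -0.250 and -0.212 on average.

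The genes most like the summed score, among the 8000 other ranked genes, included FXYD3 (mean rho 0.791), CLDN7 (0.739), S100A14 (0.732) and ALDH1A3 (0.722). FXYD3 regulates the sodium pump, CLDN7 is a tight junction claudin and ALDH1A3 makes retinoic acid. Of the 25 genes most like it, 7 were in the E list, which held 37 of the 8000 genes. FXYD3 was among the 3 genes most like 7 of the 8 genes, and S100A14, CD9 and SFN were nearest to PARD6B at only 0.183, 0.164 and 0.162. VAMP8 was nearest to FXYD3 (0.452), PERP (0.439) and LGALS3 (0.437), and MYO5C to ADGRF1 (0.381), CLDN7 (0.378) and FXYD3. For MAL2 the nearest were S100A14 (0.735), EPCAM (0.700) and FXYD3 (0.684).

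The other genes of these pathways were taken from a list of 68 genes of the Crumbs, PAR and Scribble complexes, recycling endosomes, the AP-1 adaptor, SNAREs, the MAL family, the exocyst and apical scaffolds. Of these 66 were listed in a plate and 51 were ranked. Of the 51, 6 had a rho with the M score of -0.3 or lower in all plates and none had 0.3 or higher, beside 2.23% and 1.66% of all ranked genes. The median of the 51 was -0.0284 and that of all genes -0.0232. The 6 were MYO5B (-0.575), MALL (-0.477), RAB11FIP1 (-0.367), RAB3IP (-0.365), EZR (-0.360) and PATJ (-0.354). MYO5B is the motor of RAB11 and RAB25 vesicles, RAB11FIP1 is an effector that links those GTPases to recycling, RAB3IP (Rabin8) activates RAB8, EZR is the microvillar linker ezrin and PATJ is a scaffold of the Crumbs complex. This count leaves out the 8 genes. Among its 7 AP-1 subunits, 7 exocyst genes and 9 genes of SNAREs and their SM partners, none passed in either direction. The AP-1 subunit AP1S3 (mean -0.336) missed the limit only in low-resolution replicate 2, at -0.293, and its tertile ratio was -1.29 ± 0.18. AP1M2 and VAMP8, which belong to the AP-1 and SNARE groups, were at -0.3 or lower in every plate.

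The ranked close relatives of the 8 genes had higher values than they did, except MYO5B. AP1M1, the widely expressed μ subunit, had a mean rho of 0.141 (0.0554 to 0.197) where AP1M2 had -0.713. Its level was 0.55 ± 0.09 higher on the log2 scale in the highest than in the lowest tertile. Of the class V myosins, MYO5A was at 0.135 and MYO5B at -0.575, on either side of MYO5C. RAB11A was at -0.313 and RAB11B at 0.0563 (-0.0394 to 0.181), against -0.726 for RAB25.

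VAMP2 and VAMP3, other SNAREs of the VAMP family, were at 0.0435 and 0.203, where VAMP8 was at -0.366. MALL was at -0.477, and its tertile ratio of -1.63 ± 0.14 was smaller in size than that of MAL2. The remaining relatives were scarce. LLGL1 was found in at most 5.50% of the cells of a plate, PLLP in 6.87%, PARD6A in 3.44% and PARD6G in 3.41%. MAL had 2 counts in all cells and CRB1 had 1. CRB2 had none in 1146 cells, and VAMP7 was not analysed here. The highest values among the 51 ranked genes of the list were those of AP1S2 (0.267), VAMP3, AP1M1, MYO5A and RAB11FIP5 (0.102). The unranked genes of the list had mean values from -0.252 to 0.316. The highest of these was that of STX2, found in 19.2% to 37.1% of the cells of a plate and thus just under the limit for ranking.

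**Figure D4:**
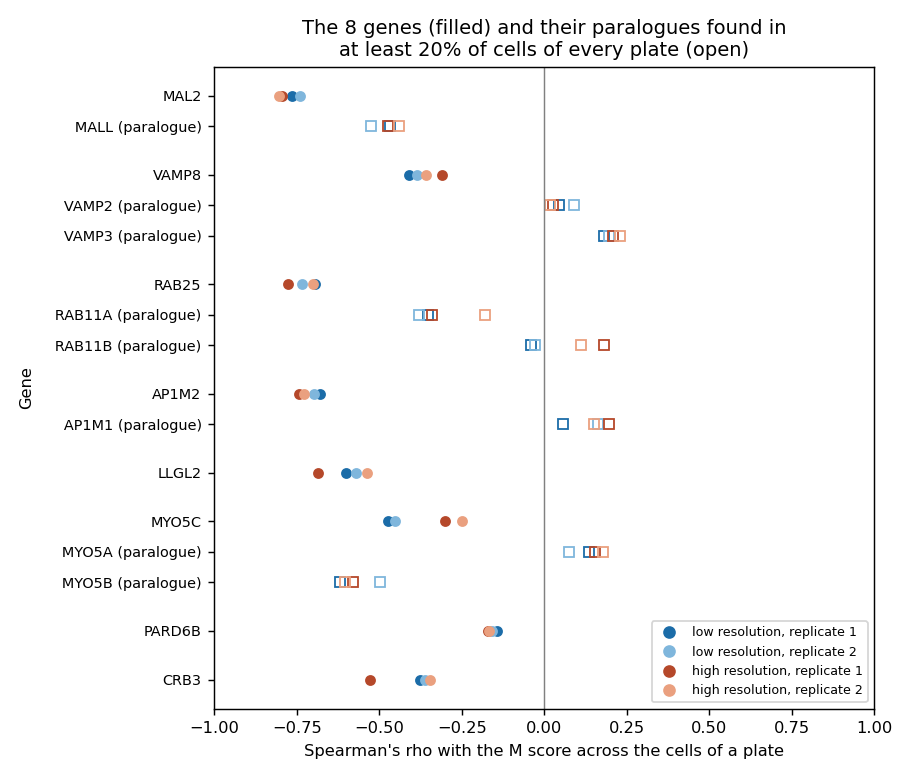
Spearman's rho with the M score over the cells of each plate, for the 8 genes (filled circles) and their ranked relatives (open squares). AP1M1, MYO5A, VAMP2 and VAMP3 lie right of 0 in all 4 plates, and every filled circle lies left of it.

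High- and low-resolution plates were then compared on the sum of all cells in each plate. This asks whether the genes differ between the cells sorted from patches tagged with narrow and with wide bands. A plate sum also depends on how many wells each band was given, which was not analysed here. The test was edgeR's quasi-likelihood test with Benjamini-Hochberg adjustment over 12437 genes. It called 12.4% of all genes, 6.18% as lower and 6.26% as higher in the high-resolution pair. Of the 8 genes 4 were called, all of them lower in the high-resolution pair. In a sum over cells, fewer epithelial cells and less RNA per cell cannot be told apart, and the tagging geometry cannot be told apart from anything else that differed between the experiments.

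Levels here are normalized counts (CPM). MYO5C had 47.7 and 47.5 CPM in the low-resolution pair and 31.1 and 26.7 in the high-resolution pair, a log2 change of -0.72 ± 0.13 (SE, edgeR adjusted p = 0.00504). AP1M2 had 92.9 and 107, against 72.1 and 62.1 (-0.58 ± 0.13, edgeR adjusted p = 0.0122). LLGL2 had 45.8 and 54.5, against 34.7 and 31.5 (-0.60 ± 0.14, edgeR adjusted p = 0.0149). RAB25 had 93.5 and 114, against 83.7 and 68.1 (-0.45 ± 0.14), and its edgeR adjusted p of 0.0496 was just past the threshold of 0.05. The call of RAB25 was lost with RLE normalization (edgeR adjusted p = 0.0510), with no mitochondrial limit on cells (edgeR adjusted p = 0.0860) and with DESeq2 (adjusted p = 0.0634).

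The other 4 genes did not pass. MAL2, with the lowest rho with the M score of the 8, was at -0.14 ± 0.10 (edgeR adjusted p = 0.407). VAMP8 was at -0.26 ± 0.13 (adjusted p = 0.205), CRB3 at -0.44 ± 0.29 (adjusted p = 0.338) and PARD6B at 0.53 ± 0.23 (adjusted p = 0.160), all by edgeR. Both high-resolution plates were below both low-resolution plates for 6 genes (29.0% of all genes) and above them for PARD6B (28.3%). The median log2 change of the 8 genes was -0.45 and that of all genes -0.02. In the same fit CDH1 was lower (-0.68 ± 0.12) and VIM (0.94 ± 0.13) and FN1 (0.77 ± 0.11) were higher in the high-resolution pair, with adjusted p of 0.00321, 0.00117 and 0.00127 by edgeR, and EPCAM did not pass (-0.11 ± 0.11, adjusted p = 0.566). Their part in the change of the 8 genes was not tested.

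The file names place low-resolution replicate 1 on another flow cell than the other 3 plates. Without it, within 1 flow cell, the same 4 genes were called, with log2 changes of -0.72, -0.67, -0.72 and -0.59 for MYO5C, AP1M2, LLGL2 and RAB25. Without low-resolution replicate 2 or without high-resolution replicate 2, MYO5C alone was called.

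Of the 60 tested genes of the pathway list, 7 were lower and 4 higher in the high-resolution pair, beside 6.18% and 6.26% of all genes, and with 1 plate left out 2 to 5 were lower and 2 to 3 higher. The 7 were PARD3B (log2 change -1.36), RAB11FIP1 (-0.87), MALL (-0.72), MYO5B (-0.50), MYO6 (-0.49), PATJ (-0.49) and EZR (-0.43), with edgeR adjusted p of 0.00214 to 0.0431. Of these, RAB11FIP1, MALL, MYO5B, PATJ and EZR were also among the 6 with a low rho with the M score. PARD3B was scarce, with 3.80 and 3.53 CPM in the low-resolution pair and 1.51 and 1.34 in the high-resolution pair. It was found in 5.50% to 11.4% of the cells of a plate. The 4 were STX2 (0.91), AP1S2 (0.80), PODXL (0.74) and RAB8A (0.47). STX2 is a syntaxin of the plasma membrane, PODXL is the sialomucin podocalyxin of the free surface, and RAB8A directs vesicles to the apical membrane and the cilium. RAB11FIP1 had 77.6 and 84.1 CPM in the low-resolution pair and 50.2 and 38.7 in the high-resolution pair, and PODXL had 15.6 and 13.9, against 27.5 and 21.7.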

How the data were processed

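MCF10A cells of 4 plates, 2 per phototagging resolution, were analysed. The authors deposited an expected count per gene and well: the UMIs seen, raised for those that collide, with spike-ins and without scaling. The submitters' processing notes name STAR 2.7.3a, Seurat 4 and hg38. Inverting this correction (4096 possible UMIs) returned whole UMIs within 1e-09 for all 7245730 values above 0, and thinning used them. Wells were kept with 2000 to 9000 features and a mitochondrial share under 40%, spike-ins were left out of totals, and counts were log-normalized to 10000. No doublet caller was run, and the upper limit on features was the only guard against doublets. Scores came from a reimplementation of GSVA with a Gaussian kernel, run once on the cells of each experiment. Shares have exact binomial (Clopper-Pearson) 95% intervals.

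Plate sums were rounded and tested with edgeR 4.0.16 (TMM, filterByExpr, quasi-likelihood). DESeq2 1.42.0 was the other tool tried, and each standard error is the log2 change divided by the root of F. On simulated counts for this comparison, with 12278 genes tested and a dispersion of 0.01, edgeR recovered 85.9% of genes changed by 1 and 100% of those changed by 2 on the log2 scale. At a dispersion of 0.05, with 12246 genes tested, it recovered 26.3% and 96.9%. The members and lists were chosen with earlier results of these data known. Genes named are the 8, their relatives, the 5 extremes of the pathway list in each direction, those past the edgeR threshold, the 5 most like the summed score (of which 1 is not reported here) and up to 3 most like each gene, and CDH1, EPCAM, VIM and FN1. In the relation to the M score, PATJ and AP1S3 fall outside this rule and were named after their values were seen. No promoter was matched for MAL2, LLGL2 or PARD6B, and that of MYO5C was not printed.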

Additional observations from a re-analysis of the deposited data

How the results depend on the processing

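Leaving out 1 plate gave 982 to 1172 genes called between high- and low-resolution plates against 1547, and 1 to 4 of the 8 genes against 4. The lone plate of a group was then assumed to vary like the other group. Without low-resolution replicate 2 or without high-resolution replicate 2, MYO5C was the only one called, and the 2 plates thus decide AP1M2, LLGL2 and RAB25. RAB25 also missed the threshold with RLE normalization, with no mitochondrial limit and with DESeq2, whereas MYO5C, AP1M2 and LLGL2 passed in all 3. DESeq2 called 1069 genes. With no filter on low counts 2146 genes were called. The direction of each of the 8 genes held in every alternative. A replicate block called 2023 genes and the same number of the 8, 4, but the replicate numbers did not pair the plates (correlation of their deviations -0.0226). Thinning to 10000 UMIs moved the median rho with the M score over the 8 genes to -0.352 from -0.526 and the median over pairs to 0.161 from 0.320. Depth limits PARD6B and CRB3 most, with 52 to 150 counts per plate.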
